A study of Mus musculus with 9 samples.

Results

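Cytochrome P450 genes were measured in small intestinal organoids of the mouse, which are epithelium grown in a gel from stem cells and contain both crypt-type and differentiated cells. RNA was read on an Affymetrix mouse expression array, where a probe set is a group of short oligonucleotides for a single transcript. Of the 9 arrays, 3 were from organoids treated with TGF-beta1 ligand at 0.04 ng/mL, 3 from organoids given 20 uM of a TgfbR1/2 inhibitor and 3 from untreated organoids. Treatment was continuous for 5 days from day 1 of a culture of 6 days. The labels name neither the compound nor a vehicle, mouse strain, age or separate cultures for the replicates. The p-values therefore cover array-to-array spread alone, and that may be technical. The comparisons ask how these genes follow a block of the receptors and an added ligand.

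A gene was taken as a member where 1 probe set or more carried a single annotated symbol of the Cyp family pattern, leaving out Cyp1a1, Cyp1b1 and Cyp51. This gave 70 of 18193 named genes, read by 91 probe sets, and each gene was represented by its brightest probe set over the 9 arrays. Of the 70 members 42 passed the filter, a signal above the 40th percentile of the array on at least 3 arrays. That level was a signal of 25.9 to 32.0 by array and is called the filter level here. Of the 42, 31 passed on all 9 arrays and 11 on 3 to 8 of them. Cyp2c37 passed through inhibitor arrays alone, so its difference is built into its selection. Just inside the filter were Cyp2c37 with 3 arrays and Cyp2r1 and Cyp2j11 with 4, and just outside were Cyp2c54 and Cyp46a1 with 2.

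Cytochrome P450 enzymes are haem proteins that insert an oxygen atom into fats, sterols, vitamins and foreign compounds, with electrons passed on from partner proteins. Members of the Cyp2 and Cyp3 families clear drugs and plant compounds and in the gut are best known from absorptive enterocytes, where they meet ingested compounds first. Many are switched on by the nuclear receptors PXR and CAR. Cyp4 enzymes hydroxylate fatty acids and eicosanoids, and the remaining families act on cholesterol, bile acids, vitamin D, retinoic acid and steroid hormones.

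The start regions of members on which the results turn are shown first, from RefSeq on build GRCm38.p6, as 250 bases before and 50 bases after the start, 5′ to 3′ on the gene's strand. They were chosen as the largest difference between ligand and inhibitor (Cyp2d10), a pair of inhibitor-raised genes (Cyp2c55, Cyp3a11), a gene of the Cyp2c cluster that was lower under both treatments (Cyp2c70), another Cyp2c gene (Cyp2c65) and the member called at least 2-fold higher with the ligand (Cyp11a1, with 2 annotated starts). Capitals mark matches on either strand to TATAAA (the TATA box), AGGTCA (a nuclear receptor half-site), AGTTCA (a half-site bound by PXR) or CAAAGTCCA (a motif of HNF4, a nuclear receptor of gut and liver). The windows lie at chr15:82407145-82407444 (minus strand, Cyp2d10), chr19:39006769-39007068 (plus strand, Cyp2c55), chr19:39060756-39061055 (plus strand, Cyp2c65), chr19:40187237-40187536 (minus strand, Cyp2c70), chr5:145879805-145880104 (minus strand, Cyp3a11), chr9:57997774-57998073 (plus strand, Cyp11a1, first start) and chr9:58014702-58015001 (plus strand, Cyp11a1, second start).
Cyp2d10: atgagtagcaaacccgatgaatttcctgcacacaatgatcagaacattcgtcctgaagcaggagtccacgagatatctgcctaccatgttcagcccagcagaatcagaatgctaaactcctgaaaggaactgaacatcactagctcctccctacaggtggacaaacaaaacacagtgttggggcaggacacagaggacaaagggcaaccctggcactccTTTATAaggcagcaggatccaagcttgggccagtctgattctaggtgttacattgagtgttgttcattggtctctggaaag
Cyp2c55: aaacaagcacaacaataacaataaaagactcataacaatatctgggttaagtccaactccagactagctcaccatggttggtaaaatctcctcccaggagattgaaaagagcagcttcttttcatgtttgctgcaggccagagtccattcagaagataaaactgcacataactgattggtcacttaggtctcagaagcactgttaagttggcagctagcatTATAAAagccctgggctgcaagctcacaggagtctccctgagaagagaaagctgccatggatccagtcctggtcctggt
Cyp2c65: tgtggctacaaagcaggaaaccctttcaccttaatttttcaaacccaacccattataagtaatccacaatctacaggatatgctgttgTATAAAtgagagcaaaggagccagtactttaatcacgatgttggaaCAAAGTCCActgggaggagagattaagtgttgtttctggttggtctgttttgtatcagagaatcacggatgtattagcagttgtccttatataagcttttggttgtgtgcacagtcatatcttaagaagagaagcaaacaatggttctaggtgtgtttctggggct
Cyp2c70: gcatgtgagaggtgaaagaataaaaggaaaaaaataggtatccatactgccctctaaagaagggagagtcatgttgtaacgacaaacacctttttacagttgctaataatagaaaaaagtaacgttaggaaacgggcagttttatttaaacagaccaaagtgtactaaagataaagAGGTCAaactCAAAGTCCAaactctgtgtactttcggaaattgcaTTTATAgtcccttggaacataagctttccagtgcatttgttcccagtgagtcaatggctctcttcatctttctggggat
Cyp3a11: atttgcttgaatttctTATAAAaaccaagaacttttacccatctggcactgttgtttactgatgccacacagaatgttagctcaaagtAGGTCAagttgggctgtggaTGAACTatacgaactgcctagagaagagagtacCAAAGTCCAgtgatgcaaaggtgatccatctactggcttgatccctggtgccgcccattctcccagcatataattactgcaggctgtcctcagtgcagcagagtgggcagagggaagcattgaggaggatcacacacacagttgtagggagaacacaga
Cyp11a1: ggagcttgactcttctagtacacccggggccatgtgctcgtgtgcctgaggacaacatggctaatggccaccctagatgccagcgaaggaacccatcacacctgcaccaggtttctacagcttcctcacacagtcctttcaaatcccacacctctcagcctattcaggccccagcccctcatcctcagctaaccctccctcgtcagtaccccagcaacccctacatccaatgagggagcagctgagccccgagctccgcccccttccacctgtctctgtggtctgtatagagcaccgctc
Cyp11a1: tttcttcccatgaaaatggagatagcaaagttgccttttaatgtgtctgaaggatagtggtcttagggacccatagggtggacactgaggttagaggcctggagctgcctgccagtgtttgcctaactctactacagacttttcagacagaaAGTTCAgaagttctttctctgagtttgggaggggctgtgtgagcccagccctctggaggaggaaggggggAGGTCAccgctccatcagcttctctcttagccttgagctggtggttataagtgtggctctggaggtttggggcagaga

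Windows were found for 49 of the 70 members, 56 windows in all. TATAAA was present in 20 of these 56 windows (35.7%), against 13.6% of all 32851 windows and 7.93% of the 13362 windows of genes tested here. Its first base stood at -31 in Cyp2d10, -29 in Cyp2c55, -29 in Cyp2c70, -162 in Cyp2c65 and -234 in Cyp3a11, counted from the start, and in Cyp2d10 and Cyp2c70 the match was on the opposite strand and is printed as TTTATA. CAAAGTCCA was present in 6 of 56 windows (10.7%), against 0.475% of all windows and 0.524% of those of tested genes. Members above the filter that held it were Cyp2c65 (-116), Cyp2c68, Cyp2c70 (-64) and Cyp3a11 (-109). AGGTCA stood in 14 windows (25%, against 16.3% of all windows and 13% of those of tested genes) and AGTTCA in 8 (14.3%, against 14% and 9.96%). The HNF1 half-site GTTAAT stood in 3 (5.36%, against 7.10% and 4.55%) and the dioxin response core GCGTG in 12 (21.4%, against 32.4% and 48.5%). Windows of tested genes compare more closely with the 39 windows of members above the filter. There TATAAA stood in 30.8%, CAAAGTCCA in 10.3%, AGGTCA in 23.1%, AGTTCA in 12.8%, GTTAAT in 7.69% and GCGTG in 23.1%. A direct repeat of AGTTCA with 3 bases between and the Smad palindrome GTCTAGAC were in 0 of the 56 windows, and in 0% and 0.213% of all windows (0% and 0.262% of those of tested genes). AGTTCA is part of the direct repeat, the other motifs share no letters in the windows shown, and a match is a description of letters, not a bound site.

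The median signal of an array was 46.1 to 57.9, and the trimmed mean signal was the same on every array. Untreated replicate 3 had the lowest signal of its group in 25 of the 42 members, against 32.7% of all genes, so counts without it are given below. The mean signal ± SD of the brush border gene Vil1 was 4993 ± 185 in ligand and 7858 ± 489 in inhibitor arrays. In untreated arrays it was 5503 ± 52.9. Vil1 alone does not show enterocyte identity, and a list of enterocyte markers is read below. Dcn (fibroblasts), Cd79a (B cells), Fgb and Ahsg (both hepatocytes) were at or below a signal of 16 on all arrays. In the fibroblast, leukocyte and endothelial lists 7 of 12, 6 of 10 and 6 of 8 genes with a probe set lay under the filter. In the hepatocyte list 4 of 10 did, and Alb, Apoh, Cps1, G6pc, Tdo2 and Ttr passed. Values below are MAS5 signals per array, and changes are log2 differences of log2(signal + 16) ± SE with n = 3 arrays per group. A gene rose, fell or was called where its limma p, adjusted over all 12936 genes tested, was under 0.05. Signals of different probe sets share no scale, so levels are compared only within a gene.

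More of the tested members rose than fell with the inhibitor, and most fell with the ligand. With the inhibitor 23 of the 42 tested members rose (54.8%) and 5 fell (11.9%), where 21% and 23.9% of all genes did. With the ligand 4 rose (9.52%) and 25 fell (59.5%), where 14.7% and 9.28% of all genes did. On leaving out 1 array, 18 to 20 of the 42 rose with the inhibitor, and 25 fell with the ligand each time. Set directly against inhibitor arrays, ligand arrays were higher in 3 members (7.14%, against 32.4% of all genes) and lower in 27 (64.3%, against 22.9%). Among the 23 that rose and these 27 is Cyp2c37, whose difference is built into its selection. Cyp3a44 and Cyp2r1 had no untreated array above the filter level, and Cyp39a1 and Cyp4f15 had no inhibitor array above it. In either direction 28 members were called with the inhibitor, 29 with the ligand and 30 between ligand and inhibitor, where 44.9%, 24% and 55.3% of all genes were. The median log2 change of the 42 members was 0.42 with the inhibitor, -0.56 with the ligand and -1.07 for ligand against inhibitor, beside -0.01, 0.05 and 0.07 over all genes. The inhibitor and ligand comparisons use the same 3 untreated arrays, so their values stand side by side with no test across them.

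A filter can favour genes that change, and the 70 members were also tested with none. Then 23 of 70 rose and 4 fell with the inhibitor (14.5% and 16.1% of all genes), 3 rose and 25 fell with the ligand (9.39% and 6%), and 3 were higher and 27 lower in ligand than in inhibitor arrays (22.7% and 16.1%). Without untreated replicate 3, 20 members rose and 6 fell with the inhibitor and 2 rose and 25 fell with the ligand. With at least a 2-fold change, 11 of the 42 tested members rose with the inhibitor (26.2%) and none fell, where 2.62% and 2.49% of all genes did. With the ligand 1 of the 42 rose (2.38%) and 9 fell (21.4%), where 1.86% and 0.765% of all genes did. For ligand against inhibitor, 24 of the 42 were at least 2-fold lower and 2 at least 2-fold higher (3.9% and 6.02%). All 3 arrays of a group lay above the other group's in 26 members and below in 4 for inhibitor against untreated (26.6% and 29.3% of all genes). For ligand against untreated this held in 6 and 25 members (24.2% and 14.4%), and for ligand against inhibitor in 3 and 30 (35.1% and 25.5%). Cyp2c37 is among the 11, 24, 26 and 30 members of these counts.

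**Figure D1:**
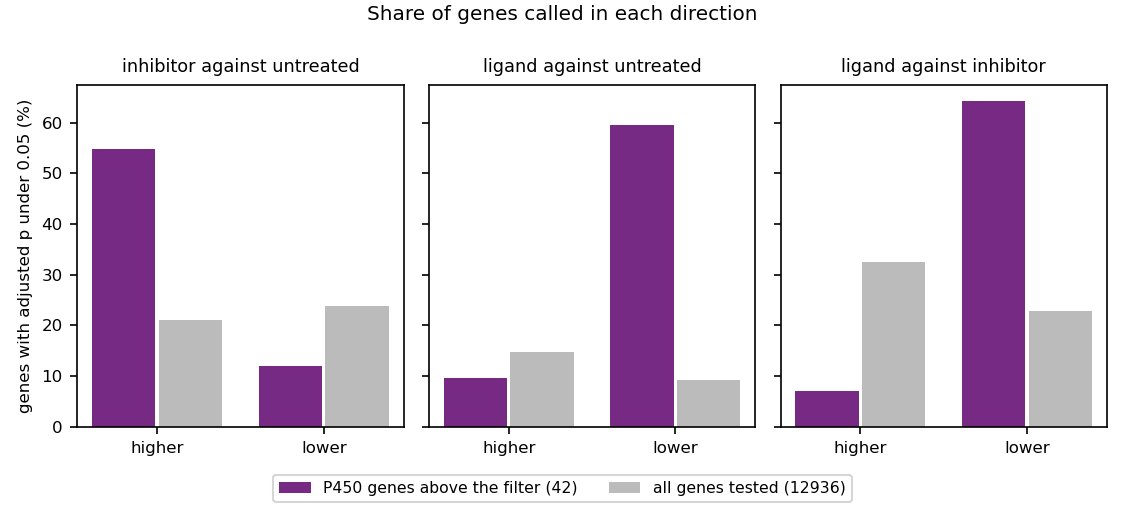
Share of genes with a limma adjusted p under 0.05 (percent, vertical axis) in each direction, for the 42 cytochrome P450 genes above the filter and for all 12936 genes tested, in 3 comparisons. With the inhibitor 54.8% of the P450 genes were higher and with the ligand 59.5% were lower, against 21% and 9.28% of all genes.

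Markers of cell states were read beside all genes. Of all genes 21% rose and 23.9% fell with the inhibitor, and 14.7% rose and 9.28% fell with the ligand. Enterocyte markers rose in 16 of 28 tested genes and fell in 1 with the inhibitor, and rose in 2 and fell in 17 with the ligand, with median log2 changes of 0.48 and -0.44. Their summed signal was 93052 to 102361 in ligand, 158467 to 186101 in inhibitor and 125569 to 140188 in untreated arrays. The peptidase gene Anpep changed by 1.90 ± 0.09 with the inhibitor and -0.43 ± 0.09 with the ligand, while alkaline phosphatase Alpi (-0.13 ± 0.10 and -0.28 ± 0.10) did not pass. Stem cell markers fell in 16 of 18 and rose in 1 with the inhibitor, Tnfrsf19 (1.46 ± 0.23), and rose in 13 with the ligand. Cell cycle genes fell in 21 of 23 with the inhibitor and rose in 6 and fell in 4 with the ligand. Tuft cell markers fell in 4 of 6 with the inhibitor and rose in 5 with the ligand. Goblet cell markers fell in 6 of 10 with the inhibitor and rose in 2 and fell in 2 with the ligand. Enteroendocrine markers rose in 4 of 12 and fell in 4 with the inhibitor and rose in 8 with the ligand. Paneth cell markers fell in 3 of 7 with the inhibitor and rose in 2 and fell in 1 with the ligand. The goblet and Paneth counts with the ligand and the enteroendocrine counts with the inhibitor are too small to set apart from the shares of all genes. Of 5 tested fibroblast genes only Vim, a mesenchymal gene, was called with the inhibitor and only Fn1, which rose, with the ligand. Their median log2 changes were 0.22 and 0.27. Vim fell by 1.11 ± 0.14 with the inhibitor and changed by 0.23 ± 0.14 with the ligand (adjusted p 0.265). Of 4 tested leukocyte genes, Cd68 and Csf1r rose and Lyz2 fell with the inhibitor, and Lyz2 alone was called with the ligand, as a rise. Of 6 tested hepatocyte markers, 2 rose (G6pc and Ttr) and 2 fell (Alb and Cps1) with the inhibitor, with a median log2 change of 0.19. None was called with the ligand. The summed signal of the hepatocyte list was 18843 to 23192 in ligand, 11908 to 13717 in inhibitor and 16809 to 20507 in untreated arrays, and a sum follows its brightest genes. The log2 ratio of 3 prime over 5 prime signal of control probe sets is a sign of RNA quality. For beta-actin it was 0.468 ± 0.0985 in ligand, 0.211 ± 0.0299 in inhibitor and 0.411 ± 0.0352 in untreated arrays (SD, n = 3). The exact 2-sided permutation p was 0.1 for inhibitor against untreated, the smallest that 3 against 3 arrays allow. For Gapdh the ratio was -0.2675 ± 0.0216 in ligand, -0.2779 ± 0.0123 in inhibitor and -0.2648 ± 0.0094 in untreated arrays. There the same test gave 0.3 for inhibitor against untreated. The part of these cell types or of RNA quality in the P450 changes was not tested, and in bulk samples fewer cells of a type and less RNA per cell cannot be told apart.

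Cyp3a genes encode broad drug and steroid oxidases, and 4 of their 5 measured genes passed the filter. With the inhibitor all 4 rose, and with the ligand 3 fell and Cyp3a44 did not pass. For these and the family counts below, 21% of all genes rose and 23.9% fell with the inhibitor. With the ligand 14.7% of all genes rose and 9.28% fell. Cyp3a11, the main mouse counterpart of the human drug oxidase CYP3A4 and a classical PXR target, had signals of 3312, 3926 and 3992 in ligand arrays, 14687, 17448 and 15843 in inhibitor arrays and 6921, 7299.8 and 5731 in untreated arrays. The 3 groups did not overlap, with ligand arrays lowest and inhibitor arrays highest. It rose 2.41-fold with the inhibitor (1.27 ± 0.11, adjusted p 1.11e-06), fell with the ligand (-0.82 ± 0.11, adjusted p 0.00012) and differed by -2.09 ± 0.11 between ligand and inhibitor arrays.

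Cyp3a13, a member of the family found in gut and liver, had signals of 2506, 2457 and 2405 in ligand arrays, 8425, 9420.4 and 8603 in inhibitor arrays and 3791, 3430.0 and 3905 in untreated arrays. Its change was 1.25 ± 0.07 with the inhibitor, -0.59 ± 0.07 with the ligand and -1.84 ± 0.07 for ligand against inhibitor (adjusted p 5.47e-08, 8.88e-05 and 8.41e-10), again with no overlap of groups. For Cyp3a25 the signals were 2380.1, 2335 and 2153 in ligand arrays, 8368, 9373 and 8762 in inhibitor arrays and 3540.5, 3832 and 2534 in untreated arrays, in the same order of groups. Untreated replicate 3 was its lowest untreated array and still lay above the 3 ligand arrays. Cyp3a25 rose by 1.44 ± 0.12 with the inhibitor and fell by 0.50 ± 0.12 with the ligand (adjusted p 1.16e-06 and 0.00933), and ligand against inhibitor arrays differed by -1.94 ± 0.12. Cyp3a44 was dim, at 29.8, 37.9 and 35.4 in ligand arrays, 44.6, 29.6 and 38.8 in inhibitor arrays and 18.6, 22.3 and 19.3 in untreated arrays, and its rise with the inhibitor of 0.57 ± 0.19 (adjusted p 0.026) started from under the filter level. Leaving out untreated or inhibitor replicate 1 or 3 ended this call (adjusted p up to 0.101). It changed by 0.48 ± 0.19 with the ligand (adjusted p 0.0829), and Cyp3a16 did not pass the filter.

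The Cyp2c genes form a large group of microsomal P450s in the mouse, and many of them oxidise arachidonic acid as well as drugs. Of 11 measured, 8 passed the filter. With the inhibitor 6 rose and 1 fell, and with the ligand 7 fell and Cyp2c37 did not pass. The 6 include Cyp2c37, which passed the filter through inhibitor arrays alone. Cyp2c55, which responds to PXR and CAR and hydroxylates arachidonic acid, had signals of 1961, 2077 and 2362 in ligand arrays, 10172, 11454 and 10726 in inhibitor arrays and 3157, 3104 and 3295 in untreated arrays. Inhibitor arrays stood far above the others and ligand arrays below untreated ones. The change was 1.75 ± 0.08 with the inhibitor (3.37-fold, adjusted p 8.33e-09), -0.58 ± 0.08 with the ligand (adjusted p 2e-04) and -2.33 ± 0.08 for ligand against inhibitor. Cyp2c29, an epoxygenase and drug oxidase abundant in liver, had signals of 1697, 2089 and 1525 in ligand arrays, 7685, 8352 and 7679.8 in inhibitor arrays and 2576, 2632 and 2299.9 in untreated arrays. It rose by 1.65 ± 0.10 and fell by 0.51 ± 0.10 with inhibitor and ligand (adjusted p 6.94e-08 and 0.00304), and differed by -2.16 ± 0.10 between ligand and inhibitor arrays.

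The next 3 Cyp2c genes also rose with the inhibitor and fell with the ligand. Cyp2c65, an intestinal epoxygenase, had 3925, 3849 and 4193 in ligand arrays, 10086, 12000.4 and 10358 in inhibitor arrays and 7264, 7337 and 6727 in untreated arrays, and all groups stood apart. Its change was 0.60 ± 0.08 with the inhibitor, -0.83 ± 0.08 with the ligand and -1.43 ± 0.08 for ligand against inhibitor. Cyp2c68 had 1154, 1162 and 1182 in ligand arrays, 2794, 2843 and 2628 in inhibitor arrays and 2344, 2414 and 1857 in untreated arrays, with the ligand arrays within a narrow range. It rose by 0.33 ± 0.09 with the inhibitor (adjusted p 0.00887), fell by 0.90 ± 0.09 with the ligand (adjusted p 1.36e-05) and differed by -1.23 ± 0.09 between ligand and inhibitor arrays. Cyp2c38 had 76.5, 106 and 103 in ligand arrays, 323, 241 and 264 in inhibitor arrays and 203, 181 and 181 in untreated arrays, and its changes were 0.51 ± 0.14, -0.89 ± 0.14 and -1.40 ± 0.14 in the same order of comparisons (adjusted p 0.00819, 0.000402 and 1.62e-06).

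The rest of the Cyp2c group departed from this pattern. Cyp2c70, the enzyme that makes muricholic acids in mouse liver, had 89.6, 65.3 and 46.2 in ligand arrays, 81.5, 76.4 and 61.5 in inhibitor arrays and 178, 140.4 and 148 in untreated arrays, and untreated arrays were above all treated ones. It fell by 0.94 ± 0.18 with the inhibitor (adjusted p 0.000983) and by 1.07 ± 0.18 with the ligand (adjusted p 0.001), with -0.13 ± 0.18 between ligand and inhibitor (adjusted p 0.585). Cyp2c23, an arachidonic acid epoxygenase of the kidney, had 39.1, 47 and 43.4 in ligand arrays, 122, 112 and 106 in inhibitor arrays and 149.6, 113 and 82.1 in untreated arrays. Only its ligand arrays stood apart, with 0.01 ± 0.18 under the inhibitor (adjusted p 0.962), -1.12 ± 0.18 under the ligand (adjusted p 0.000507) and -1.13 ± 0.18 for ligand against inhibitor. Cyp2c37 had 16.6, 10.6 and 12 in ligand arrays, 86.6, 93.3 and 101 in inhibitor arrays and 11.1, 7.04 and 12.7 in untreated arrays, so inhibitor arrays alone were above the filter level. Its change of 2.06 ± 0.19 with the inhibitor and of -1.92 ± 0.19 for ligand against inhibitor are thus given as a description, and with offsets of 1 and 64 they were 3.10 and 1.08, and -2.77 and -1.03. Between ligand and untreated arrays it changed by 0.15 ± 0.19 (adjusted p 0.637). Cyp2c39, Cyp2c50 and Cyp2c54 did not pass the filter.

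**Figure D2:**
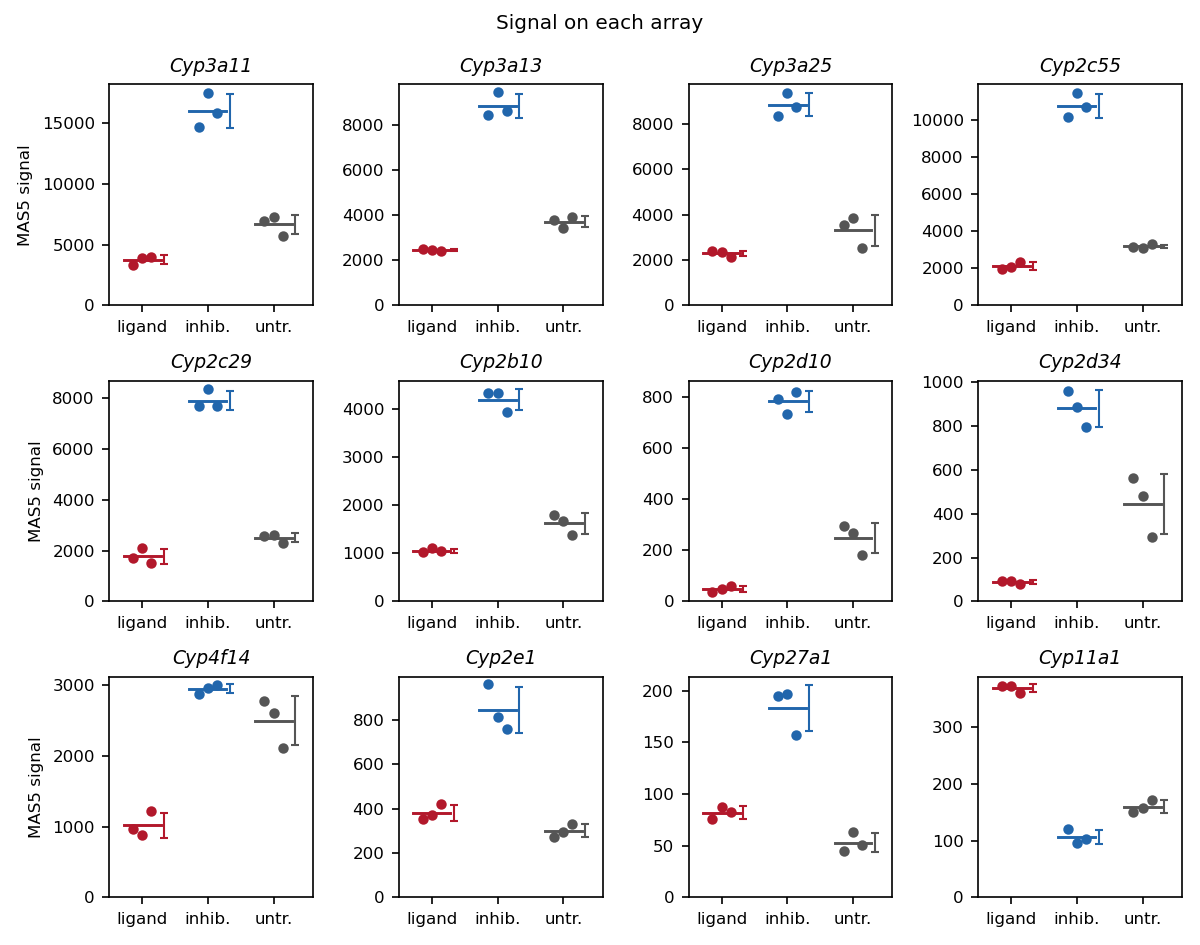
MAS5 signal (vertical axes, linear from 0, 1 scale per gene) on each of the 3 ligand, 3 inhibitor and 3 untreated arrays for 12 P450 genes, with group means as lines and SD bars beside them. In Cyp3a11 the ligand arrays lie at 3312 to 3992 and the inhibitor arrays at 14687 to 17448, while in Cyp11a1 the order is reversed.

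Cyp2b and Cyp2e1 genes were next. Cyp2b10, the standard read-out of CAR activity in mouse, had signals of 1027, 1099 and 1037 in ligand arrays, 4324, 4316 and 3931 in inhibitor arrays and 1801, 1679 and 1386 in untreated arrays, with all groups apart. It rose 2.58-fold with the inhibitor (1.37 ± 0.09, adjusted p 1.23e-07), fell with the ligand (-0.61 ± 0.09, adjusted p 0.000309) and differed by -1.97 ± 0.09 between ligand and inhibitor arrays. Its other 2 probe sets gave 1.37 and 1.56 for the inhibitor and -0.91 and -0.83 for the ligand. Cyp2e1, which oxidises ethanol and small solvents, had 353, 371 and 422 in ligand arrays, 961, 814 and 759 in inhibitor arrays and 274, 296 and 332 in untreated arrays. Inhibitor arrays were highest and untreated arrays lowest, with 1.44 ± 0.11 for the inhibitor (adjusted p 3.09e-07) and -1.11 ± 0.11 for ligand against inhibitor (adjusted p 1.25e-06). Its rise with the ligand of 0.33 ± 0.11 (adjusted p 0.0369) was lost in 9 of 18 alternative settings, among them without untreated replicate 1 or 2 or ligand replicate 2 or 3, with an adjusted p of 0.0246 to 0.197 over all. Cyp2b9 rose by 0.50 ± 0.16 with the inhibitor (adjusted p 0.0207), at 62.1, 70.8 and 70.5 in inhibitor arrays against 52.2, 36.6 and 41.7 in untreated arrays, and changed by -0.03 ± 0.16 with the ligand. Leaving out untreated or inhibitor replicate 2 or 3 ended the inhibitor call of Cyp2b9 (adjusted p up to 0.0806). Cyp2b13 stayed at about the filter level and was not called in any comparison. Cyp1a2, Cyp2a12, Cyp2b19, Cyp2f2 and Cyp2g1, enzymes best known from liver, skin, lung and nose, did not pass the filter.

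The Cyp2d genes, relatives of the human drug oxidase CYP2D6, fell with the ligand in all 6 members above the filter. With the inhibitor 3 rose, 1 fell and 2 did not pass. Cyp2d10 had signals of 36.6, 47 and 60.3 in ligand arrays, 794, 736 and 819 in inhibitor arrays and 294, 269 and 182 in untreated arrays, a wide separation of all groups. It fell 4.11-fold with the ligand (-2.04 ± 0.16, adjusted p 3.12e-06) and rose 3.07-fold with the inhibitor (1.62 ± 0.16, adjusted p 4.89e-06). Between ligand and inhibitor arrays it differed 12.6-fold (-3.66 ± 0.16, adjusted p 2.03e-09), the largest difference among the 42 members. The size depended on the offset, with a log2 change of -4.03 at an offset of 1 and -2.92 at an offset of 64. Cyp2d34 had 93.6, 92 and 80.6 in ligand arrays, 959.7, 885 and 794 in inhibitor arrays and 560.3, 482 and 295 in untreated arrays, and the lowest untreated array was replicate 3. It fell by 2.10 ± 0.17 with the ligand (adjusted p 3.95e-06), rose by 1.00 ± 0.17 with the inhibitor (adjusted p 0.000425) and differed by -3.09 ± 0.17 between ligand and inhibitor.

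The other Cyp2d genes responded to the ligand chiefly. Cyp2d26, a gene with abundant transcript in liver, had 2730.1, 3013 and 3046 in ligand arrays, 7191, 8987 and 7558 in inhibitor arrays and 6339, 6409 and 4897 in untreated arrays. It fell by 0.99 ± 0.11 with the ligand (adjusted p 3.68e-05), rose by 0.43 ± 0.11 with the inhibitor (adjusted p 0.00656) and differed by -1.42 ± 0.11 between ligand and inhibitor. Cyp2d22, often compared with CYP2D6, had 132, 131 and 123 in ligand arrays, 434, 344 and 365 in inhibitor arrays and 493, 346 and 291 in untreated arrays, where inhibitor and untreated arrays overlapped. Its change was -1.41 ± 0.15 with the ligand (adjusted p 2.85e-05), 0.04 ± 0.15 with the inhibitor (adjusted p 0.852) and -1.45 ± 0.15 for ligand against inhibitor. Cyp2d13, annotated as a transcribed pseudogene, had 31.3, 6.10 and 37.3 in ligand arrays, 113, 69.2 and 85.6 in inhibitor arrays and 80.9, 81 and 50.7 in untreated arrays, and changed by -1.16 ± 0.30 with the ligand (adjusted p 0.0119), 0.28 ± 0.30 with the inhibitor (adjusted p 0.483) and -1.44 ± 0.30 for ligand against inhibitor. With offsets of 1 and 64 the ligand change of Cyp2d13 was -1.77 and -0.61, and ligand against inhibitor was -2.10 and -0.79. Cyp2d9 had 33.9, 61.5 and 37 in ligand arrays, 74.7, 71.9 and 67.8 in inhibitor arrays and 208, 187 and 72.1 in untreated arrays, with untreated replicate 3 far below the other untreated arrays and among the inhibitor arrays. It fell by 1.43 ± 0.29 with the ligand (adjusted p 0.00305). Its fall of 0.86 ± 0.29 with the inhibitor (adjusted p 0.027) was lost in 7 of 17 alternative settings, among them without untreated replicate 1 or 2 or any 1 inhibitor replicate, and its adjusted p ranged from 0.000221 (without untreated replicate 3, log2 change -1.29) to 0.127. Cyp2d12 and Cyp2d40 did not pass the filter.

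Most members of the Cyp2c, Cyp2d and Cyp3a groups lie side by side in the genome, and Cyp2c23 and Cyp3a13 were left out of the clusters. The probe sets of close relatives may read each other's transcripts. Along the Cyp2d cluster on chromosome 15 all 6 genes above the filter were lower with the ligand, with log2 changes of -2.10 to -0.99. The nearest tested genes on either side, chosen after the P450 values were seen, were Ndufa6 (-0.33 ± 0.08 with the ligand and -0.13 ± 0.08 with the inhibitor) and Tcf20 (0.24 ± 0.08 and -0.23 ± 0.08). Along the Cyp2c cluster on chromosome 19 the ends differed under the inhibitor, with 1.75 ± 0.08 for Cyp2c55 and -0.94 ± 0.18 for Cyp2c70, and the flanking genes were Hells (-0.90 ± 0.08) and Pdlim1 (-0.07 ± 0.09). Along the Cyp4f cluster on chromosome 17, Cyp4f15 changed the opposite way to its neighbours Cyp4f16 and Cyp4f14 with the ligand.

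**Figure D3:**
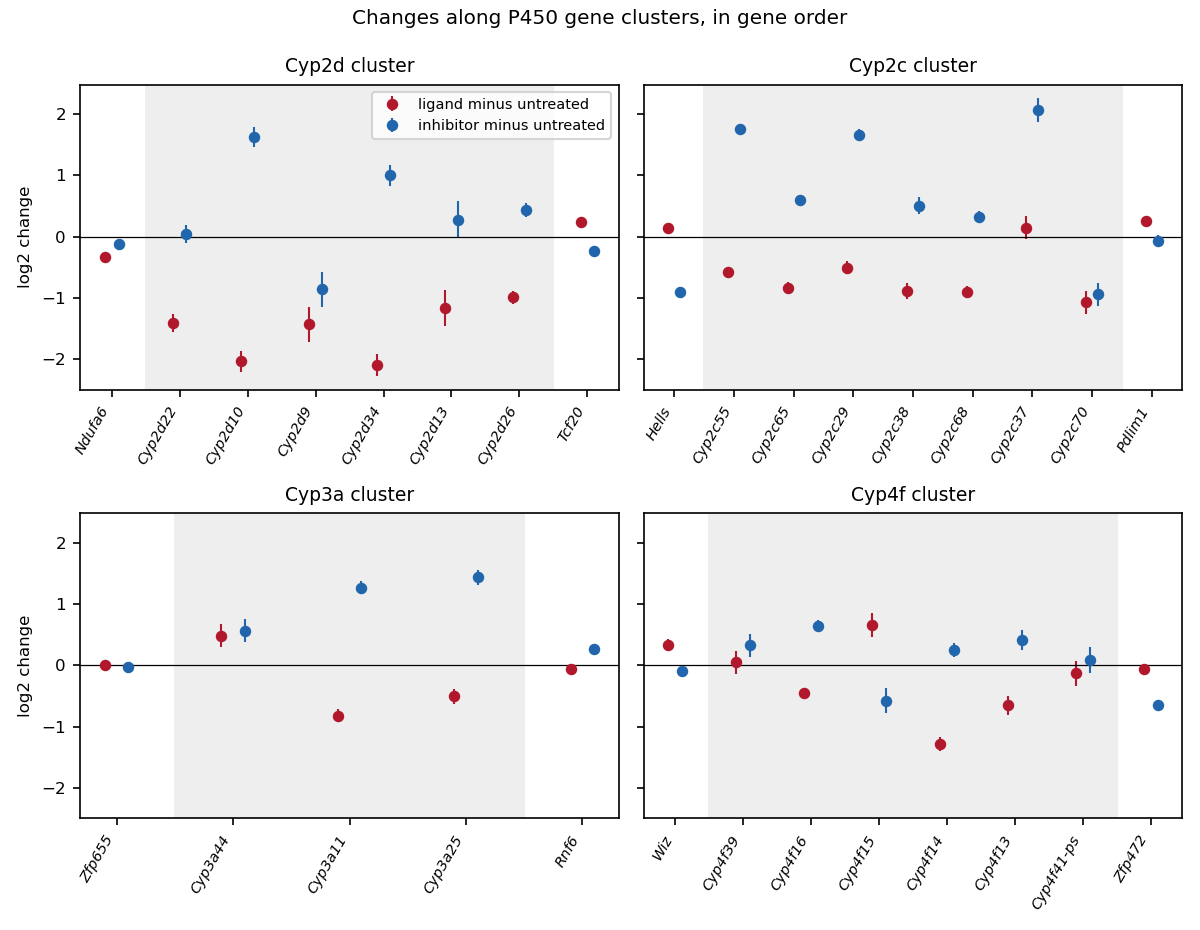
Log2 change from untreated arrays ± SE (vertical axis, n = 3 arrays per group) with the ligand and with the inhibitor, for P450 genes above the filter in their order along 4 gene clusters (grey) and the nearest tested gene on either side (white), leaving out other genes between them. All 6 Cyp2d genes lie below 0 with the ligand, and Cyp2c70 lies below 0 under both treatments. Cyp2c23 and Cyp3a13 were left out of the clusters.

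Among Cyp2j, Cyp2s and Cyp2u genes, the ligand comparison carried the calls. Cyp2j6, an intestinal arachidonic acid epoxygenase, had 1325, 1371 and 1237 in ligand arrays, 2184, 2011 and 1956 in inhibitor arrays and 2278, 1992 and 1941 in untreated arrays. It fell by 0.65 ± 0.08 with the ligand (adjusted p 5.98e-05) and changed by -0.01 ± 0.08 with the inhibitor (adjusted p 0.917), where the arrays overlapped with untreated ones, and by -0.64 ± 0.08 for ligand against inhibitor. In a fit over all probe sets its other probe set gave -0.42 with the ligand (adjusted p 0.0139) and -0.25 for ligand against inhibitor (adjusted p 0.0619). Cyp2s1, an epithelial P450 of skin, lung and gut, had 1894, 1784 and 2149 in ligand arrays, 3483, 3644 and 3613 in inhibitor arrays and 3267, 3007 and 2947 in untreated arrays. It fell by 0.66 ± 0.08 with the ligand (adjusted p 5.18e-05) and differed by -0.88 ± 0.08 between ligand and inhibitor. Its small rise of 0.22 ± 0.08 with the inhibitor (adjusted p 0.0338) was lost in 8 of 18 alternative settings, among them without untreated replicate 2 or 3 or any 1 inhibitor replicate, with an adjusted p of 0.013 to 0.113 over all. Cyp2u1, a fatty acid hydroxylase, had 52.9, 35.7 and 58.3 in ligand arrays, 97.4, 146 and 121 in inhibitor arrays and 216, 178 and 136 in untreated arrays. It fell by 1.57 ± 0.19 with the ligand (adjusted p 6.91e-05) and changed by -0.48 ± 0.19 with the inhibitor (adjusted p 0.0554) and -1.08 ± 0.19 for ligand against inhibitor (adjusted p 0.000302). In the fit over all probe sets the other Cyp2u1 probe set gave smaller changes of -0.55 with the ligand (adjusted p 0.0435) and -0.46 for ligand against inhibitor (adjusted p 0.0414). The inhibitor value of Cyp2u1 passed in 5 alternative settings, among them without untreated replicate 3 or inhibitor replicate 2 (adjusted p 0.0211 to 0.217 over all). Cyp2j9 and Cyp2j11 were not called in any comparison, and Cyp2j5 and Cyp2j13 did not pass the filter.

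Cyp4 genes encode hydroxylases of fatty acids and eicosanoids, and 8 of 13 passed the filter. With the inhibitor 3 rose and 1 fell, and with the ligand 1 rose and 5 fell. Cyp4f14, which inactivates leukotriene B4 and acts on vitamin E, had 965, 877 and 1214 in ligand arrays, 2876, 2962 and 3000.0 in inhibitor arrays and 2766, 2608 and 2104 in untreated arrays. It fell 2.43-fold with the ligand (-1.28 ± 0.12, adjusted p 6.93e-06), changed by 0.25 ± 0.12 with the inhibitor (adjusted p 0.1) and by -1.53 ± 0.12 for ligand against inhibitor. Inhibitor arrays lay above untreated ones without overlap, yet the difference did not pass, except where only these groups were fitted (adjusted p 0.0412, over a range of 0.0412 to 0.389). Cyp4b1, a hydroxylase of short fatty acids, had 440.5, 545 and 516 in ligand arrays, 2026, 1806 and 1659.7 in inhibitor arrays and 879, 803 and 949 in untreated arrays. It rose by 1.05 ± 0.10 with the inhibitor (adjusted p 2.35e-06), fell by 0.79 ± 0.10 with the ligand (adjusted p 7.25e-05) and differed by -1.84 ± 0.10 between ligand and inhibitor.

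Cyp4v3, the counterpart of a human gene mutated in a crystalline retinal dystrophy, had 1146, 1072 and 1048 in ligand arrays, 2281, 2290.3 and 2299 in inhibitor arrays and 1751, 1651 and 1389.6 in untreated arrays, with the groups apart. It rose by 0.52 ± 0.08 with the inhibitor (adjusted p 0.000179), fell by 0.54 ± 0.08 with the ligand (adjusted p 0.000385) and differed by -1.06 ± 0.08 between ligand and inhibitor. Cyp4f16 followed the same course, at 1099.7, 1075 and 1231 in ligand arrays, 2525, 2409 and 2448 in inhibitor arrays and 1774, 1503 and 1431 in untreated arrays. It rose by 0.65 ± 0.08 with the inhibitor (adjusted p 3.8e-05) and fell by 0.46 ± 0.08 with the ligand (adjusted p 0.00161). For ligand against inhibitor it differed by -1.11 ± 0.08 (adjusted p 1.7e-07). Its other probe set, in a fit over all probe sets, was not called against untreated arrays, at 0.13 with the inhibitor (adjusted p 0.647) and -0.40 with the ligand (adjusted p 0.209), and gave -0.54 for ligand against inhibitor (adjusted p 0.0437). Cyp4f13 had 297, 182 and 167 in ligand arrays, 474, 421 and 467 in inhibitor arrays and 356, 349.9 and 307 in untreated arrays. It fell by 0.65 ± 0.16 with the ligand (adjusted p 0.00987) and did not pass with the inhibitor (0.41 ± 0.16, adjusted p 0.0522). Between ligand and inhibitor it differed by -1.06 ± 0.16 (adjusted p 8.07e-05). The inhibitor value of Cyp4f13 passed in 6 of 18 alternative settings, among them the replicate block, quantile normalization, median centring and the fit of those groups alone (adjusted p 0.00217 to 0.151 over all). Cyp4f15 ran the other way, with 88.7, 72.4 and 52.3 in ligand arrays, 24.2, 18 and 19.4 in inhibitor arrays and 37.3, 45 and 33.2 in untreated arrays. It rose by 0.66 ± 0.20 with the ligand (adjusted p 0.0261), fell by 0.57 ± 0.20 to under the filter level with the inhibitor (adjusted p 0.0291) and was higher by 1.24 ± 0.20 in ligand than in inhibitor arrays (adjusted p 0.000124). Its calls against untreated arrays were lost in 6 (ligand) and 5 (inhibitor) alternative settings, among them without untreated replicate 1 for both, with an adjusted p of up to 0.117 (ligand) and 0.103 (inhibitor). The ligand call was also lost without untreated replicate 3 or ligand replicate 1 or 2, and the inhibitor call without untreated replicate 2 or inhibitor replicate 2 or 3. Cyp4f39, a hydroxylase of very long fatty acids in skin, and the pseudogene Cyp4f41-ps were not called in any comparison. Cyp4a12a, Cyp4a14, Cyp4a31, Cyp4f18 and Cyp4x1 did not pass the filter.

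Among genes of sterol, bile acid and vitamin D metabolism, 3 of 9 passed the filter. Cyp27a1, the mitochondrial sterol hydroxylase that also starts the alternative bile acid pathway, had 75.4, 87.8 and 83.1 in ligand arrays, 195, 197 and 157 in inhibitor arrays and 45.3, 63.2 and 50.8 in untreated arrays. It was higher in all treated arrays than in untreated ones, and highest with the inhibitor. It rose 2.89-fold with the inhibitor (1.53 ± 0.14, adjusted p 2.48e-06) and by 0.51 ± 0.14 with the ligand (adjusted p 0.0196), and ligand against inhibitor arrays differed by -1.02 ± 0.14 (adjusted p 4.46e-05). Its other probe set passed the filter level on 0 of the 9 arrays. The ligand call of Cyp27a1 was lost in 5 of 18 alternative settings, among them without untreated replicate 1 or 3 or ligand replicate 2, with an adjusted p of 0.0125 to 0.0786 over all. Cyp2r1, a vitamin D hydroxylase, rose by 0.69 ± 0.21 with the inhibitor (adjusted p 0.0158) from untreated signals of 11.9, 17.1 and 16.5, under the filter level, a call that ended on leaving out untreated replicate 1 or inhibitor replicate 1 or 3 (adjusted p up to 0.0603). Cyp39a1, an oxysterol hydroxylase, fell by 0.68 ± 0.19 with the inhibitor (adjusted p 0.0104) to 26, 21.5 and 26, under the filter level of each of these arrays, against 48.9, 51.7 and 45.3 in untreated arrays. Its ligand arrays were above the inhibitor arrays by 0.70 ± 0.19 (adjusted p 0.00663) and changed by 0.02 ± 0.19 from untreated (adjusted p 0.95). Cyp7a1, Cyp7b1, Cyp8b1 and Cyp46a1 of cholesterol breakdown, and Cyp24a1 and Cyp27b1 of vitamin D metabolism, did not pass the filter.

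Of 5 steroid hormone genes 2 passed the filter. Cyp11a1, which cuts the side chain of cholesterol in the first step of steroid synthesis and is also used for local glucocorticoid synthesis in the gut, had signals of 371, 373 and 360.0 in ligand arrays, 121, 95.8 and 103 in inhibitor arrays and 149.6, 158 and 172 in untreated arrays. Ligand arrays were highest and inhibitor arrays lowest, with no overlap. It rose 2.19-fold with the ligand (1.13 ± 0.11, adjusted p 8.77e-06), fell by 0.52 ± 0.11 with the inhibitor (adjusted p 0.00123) and was 3.14-fold higher in ligand than in inhibitor arrays (1.65 ± 0.11, adjusted p 3.69e-08). These values rest on 1 of its 3 probe sets, since the other 2 passed the filter level on 0 of 9 arrays. Cyp21a1, a steroid hydroxylase of the adrenal, rose by 0.55 ± 0.18 with the inhibitor (adjusted p 0.0226), at 94.4, 96.3 and 92.3 in inhibitor arrays against 49.7, 48.6 and 85.2 in untreated arrays. That call was lost on leaving out untreated replicate 1 or 2 or any 1 inhibitor replicate, with an adjusted p of 0.00192 to 0.0939 over all settings. The other Cyp21a1 probe set passed the filter level on 0 of the 9 arrays. Cyp11b1, Cyp11b2 and Cyp17a1, which complete corticosteroid and sex steroid synthesis, did not pass the filter.

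Cyp26b1 and Cyp20a1 were not called on their brightest probe sets. Cyp26b1, which breaks down retinoic acid, had 5.33, 51.1 and 36 in ligand arrays, 26.3, 8.39 and 40.3 in inhibitor arrays and 29.4, 9.18 and 29.1 in untreated arrays, around the filter level with wide spread in every group. Its change was 0.18 ± 0.42 with the ligand (adjusted p 0.808), 0.06 ± 0.42 with the inhibitor (adjusted p 0.928) and 0.12 ± 0.42 for ligand against inhibitor. Cyp26a1 did not pass the filter. Cyp20a1, a P450 of unsettled function, had 1119.9, 1282 and 676 in ligand arrays, 917, 1092 and 1242 in inhibitor arrays and 749, 1050.0 and 1064 in untreated arrays, and the 3 groups overlapped. It changed by 0.07 ± 0.20 with the ligand (adjusted p 0.839), 0.19 ± 0.20 with the inhibitor (adjusted p 0.482) and -0.12 ± 0.20 for ligand against inhibitor. Its other probe sets disagreed in a fit over all probe sets, at 0.25 with the inhibitor for one (adjusted p 0.252) and -0.68 for the other (adjusted p 0.0358), which was thus called lower. The 28 members that did not pass the filter had signals of 0.273 to 40.5 with a median of 11.3, and none of them was called by limma in any comparison when no filter was applied.

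**Figure D4:**
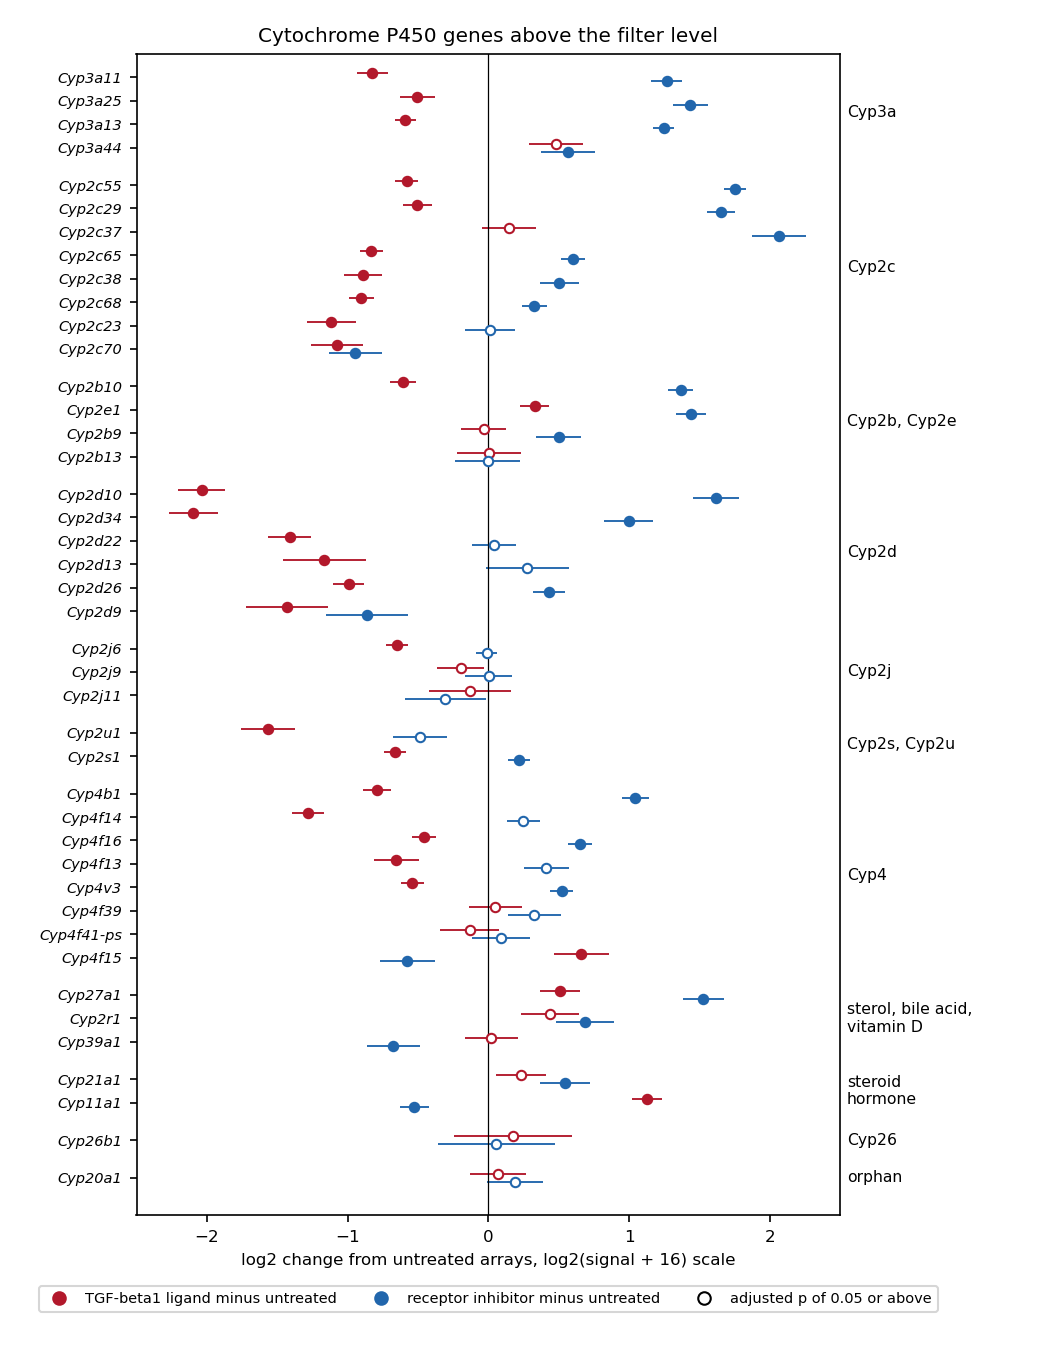
Log2 change from untreated arrays ± SE (horizontal axis, n = 3 arrays per group) for the 42 P450 genes above the filter, with the ligand and with the inhibitor, ordered by role, with open points where the adjusted p was 0.05 or above. Most Cyp3a, Cyp2c, Cyp2d and Cyp4 genes lie left of 0 with the ligand and right of 0 with the inhibitor, Cyp11a1 and Cyp4f15 the other way round.

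Genes that serve P450 enzymes were read from a list of electron donors and haem supply, of which 19 of 23 had a probe set and were tested. With the inhibitor 6 rose and 2 fell, and with the ligand 3 rose and 7 fell (medians 0.12 and -0.13), where 21% and 23.9% of all genes rose and fell with the inhibitor and 14.7% and 9.28% with the ligand. Alas1, the rate-limiting enzyme of haem synthesis, had a mean signal of 974 ± 119.8 in ligand, 1921 ± 113 in inhibitor and 1196 ± 65 in untreated arrays. It rose by 0.68 ± 0.09 with the inhibitor (adjusted p 3.53e-05) and fell by 0.30 ± 0.09 with the ligand (adjusted p 0.0247). Pgrmc2, a haem carrier, changed by 0.53 ± 0.06 and -0.52 ± 0.06, and Cyb5b, an electron-carrying cytochrome, by 0.38 ± 0.07 and -0.34 ± 0.07, with inhibitor and ligand in that order. Fdx1, the ferredoxin that feeds mitochondrial P450s such as Cyp11a1 and Cyp27a1, fell by 0.52 ± 0.07 with the inhibitor (adjusted p 4.19e-05) and by 0.26 ± 0.07 with the ligand (adjusted p 0.0145). Blvrb, a biliverdin reductase of haem breakdown, ran against most of the list, with -0.57 ± 0.08 for the inhibitor and 0.92 ± 0.08 for the ligand.

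Of 30 regulators of P450 genes 25 were tested. With the inhibitor 6 rose and 7 fell, and with the ligand 12 fell and the other 13 did not pass (medians -0.01 and -0.28). The inhibitor counts lie near the 21% and 23.9% of all genes that rose and fell, and with the ligand 9.28% of all genes fell. Nr1i2, which encodes PXR, changed by 0.14 ± 0.09 with the inhibitor (adjusted p 0.25) and -0.19 ± 0.09 with the ligand (adjusted p 0.164), while ligand against inhibitor arrays differed by -0.32 ± 0.09 (adjusted p 0.00829). Nr1i3, which encodes CAR, fell by 1.24 ± 0.14 with the ligand (adjusted p 4.72e-05) and changed by -0.29 ± 0.14 with the inhibitor (adjusted p 0.114). Hnf4g, an intestinal nuclear receptor of the HNF4 family, had 284 ± 30.3 in ligand, 913 ± 56.3 in inhibitor and 593 ± 106 in untreated arrays. Hnf4g fell by 1.01 ± 0.12 with the ligand (adjusted p 5.13e-05) and rose by 0.62 ± 0.12 with the inhibitor (adjusted p 0.000797). The bile acid receptor Nr1h4 likewise fell by 0.68 ± 0.11 with the ligand and rose by 0.78 ± 0.11 with the inhibitor, and the coactivator Ppargc1a fell by 0.90 ± 0.10 and 0.26 ± 0.10. Nr5a2, the receptor that drives gut steroid synthesis, fell by 0.57 ± 0.11 with the ligand and 0.75 ± 0.11 with the inhibitor. The smallest p-values of the list with the inhibitor were falls, of Cebpb by 0.78 ± 0.06 (adjusted p 9.3e-07) and Nr2f2 by 0.81 ± 0.08 (adjusted p 3.46e-06). Cebpb also fell with the ligand (-0.32 ± 0.06, adjusted p 0.003), while Nr2f2 changed by 0.17 ± 0.08 (adjusted p 0.133). Hnf4a was not called in any comparison (-0.15 ± 0.09 with the ligand and 0.04 ± 0.09 with the inhibitor).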

How the data were processed

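The deposited values are MAS5 intensities on a linear scale, 1 per probe set and array, per the submitters' processing notes. Neither a MAS5 version nor a batch is given in the sources used here. Gene names of the 45101 probe sets came from the platform's annotation table: 34945 had 1 symbol, 932 several, 9160 none, and 64 controls were left out. For 34741 of the named probe sets the Entrez identifier was found in a RefSeq gene table, and 0 symbols changed. Each gene was read by its brightest probe set, and 12936 genes passing the 40th percentile on at least 3 arrays were tested with limma 3.58.1 in R 4.3.3: log2(signal + 16), 1 mean per group over the 9 arrays, variance trend with intensity, 2-sided, Benjamini-Hochberg over all genes at 0.05. Of all values 28.9% lay at or below 16, where changes are understated and MAS5 is noisy. Intensities give no counts, so the number of arrays limits the precision. Every array's trimmed mean signal was 350.0, and no 2 arrays were identical. The alternatives were the offset, filter, normalization, variance trend, samples fitted, replicate block, probe set rule and leaving out each array. The fit was tested on simulated data. Members and lists were chosen with earlier results of these data known. Array values and log2 changes ± SE are given, by rule, for members called with an absolute log2 change of at least 1 and for 18 fixed members. Of these Cyp24a1 was not above the filter, and Por, the fixed partner gene, was not analysed here.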

Additional observations from a re-analysis of the deposited data

How the results depend on the processing

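Over all alternatives the count of P450 genes that fell with the ligand was 23 to 25 (25 reported), and that of genes lower in ligand than in inhibitor arrays 24 to 29 (27 reported). The count that rose with the inhibitor was 18 to 25 (23 reported). Small counts moved more. The count that fell with the inhibitor (5 reported) was 3 with the filter at the 60th percentile, where Cyp2d9, Cyp39a1 and Cyp4f15 left and Cyp2u1 entered. On leaving out 1 array it was 3 to 6, with 3 without untreated replicate 1 or 2 or inhibitor replicate 3 and 6, Cyp2u1 added, without untreated replicate 3. Of the 4 that rose with the ligand, 1 did under quantile normalization or median centring and 1 to 3 on leaving out 1 array (1 without untreated replicate 1 or ligand replicate 2, 2 without untreated replicate 3). Of the 3 higher in ligand than in inhibitor arrays, 1 was with the 60th percentile filter. The median change with the inhibitor (0.42) was 0.30 with an offset of 64, 0.19 with no filter, 0.51 with the 60th percentile filter and 0.36 to 0.45 on leaving out 1 array. With the ligand (-0.56) it was -0.14 with no filter, -0.66 with the 60th percentile filter and -0.67 under median centring. For ligand against inhibitor (-1.07) it was -0.83 with an offset of 64, -0.28 with no filter, -1.31 with the 60th percentile filter, -1.19 under quantile normalization and -1.23 under median centring. Fewer or more genes entered under the other filters, and the cause of the other shifts was not tested. Median centring moved the median of all genes for ligand against inhibitor from 0.07 to -0.09, and the share of higher calls among all genes with the ligand from 61.3% to 36.6%, where the P450 genes stood at 1 higher and 25 lower. For ligand against inhibitor that share moved from 58.6% to 41.8%, where the P450 genes stood at 3 higher and 29 lower. Signs turned in genes that were not called. Cyp20a1 was -0.081 with the inhibitor under the mean of probe sets, -0.042 with the ligand under median centring (-0.11 to 0.34 on leaving out 1 array) and 0.10 for ligand against inhibitor under the mean of probe sets (-0.30 to 0.15). Cyp2j6 with the inhibitor was 0.031 under median centring (-0.058 to 0.058). Cyp26b1 was -0.22 to 0.39 with the inhibitor and -0.16 to 0.67 with the ligand on leaving out 1 array, and for ligand against inhibitor -0.0376 under median centring (-0.22 to 0.61). Residual correlations between arrays of equal replicate number ran from -0.08 to 0.08. Unequal numbers were not compared, so these values cannot decide whether the numbers mark shared cultures. With the replicate block 24 P450 genes rose and 5 fell with the inhibitor, 3 rose and 25 fell with the ligand, and 3 were higher and 27 lower in ligand than in inhibitor arrays. Signal near background limits the 28 members under the filter, where no difference could be read.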
